A study of Arabidopsis thaliana with 6 samples.

Results

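Aquaporins are the membrane channels through which water and small uncharged solutes such as boric acid, ammonia and glycerol cross plant membranes. The deposited expression table of an RNA-seq study of siliques (the seed-bearing fruits) of Arabidopsis thaliana was searched for every row whose description contains the word aquaporin. This gave 21 of 27779 gene rows. The study compared 2 genotypes, WT and the mutant agc1-4, with 3 libraries each, all from siliques taken 3 days after pollination. The deposited columns carry the prefix Col for the WT libraries and sr for the agc1-4 libraries. The labels name no other allele, transgene or treatment, do not say how agc1-4 was made, and leave unsaid whether replicates are separate plants or pools. A p-value therefore covers only how far these libraries differ, and that spread may be technical.

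Plant aquaporins fall into subfamilies, of which PIPs and TIPs are named for the membrane they sit in. PIPs sit in the plasma membrane and carry water into and out of the cell. TIPs sit in the tonoplast, the membrane of the vacuole, and let the vacuole take up water as cells expand. NIPs carry boric acid, metalloids and other small solutes more than water, and SIPs reside in the endoplasmic reticulum. In growing fruits and seeds, aquaporins are known for the water flow that drives cell expansion and for unloading water into the seed.

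Of the 21 rows, 19 are named aquaporin genes (5 PIP2, 8 TIP, 5 NIP and 1 SIP gene) and the other 2, AT1G52180 and AT2G29870, carry no gene name. The word missed 16 further loci of the 35 that make up the named family, because the table describes them in other words, among them older names such as TMP-B, family names without the word and, for NIP5-1, a locus code. Among these are all 5 PIP1 genes and the most abundant family gene, PIP2-1. These 16 are used below as the nearest set for comparison.

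Most aquaporins share a signature of Asn-Pro-Ala (NPA) at 2 places in the protein, where the chain folds back into the pore. In the RefSeq coding sequences of assembly TAIR10.1, in-frame codons for Asn-Pro-Ala occurred in 2 places in 16 of the 21 members, in 1 place in 4 and in 0 in 1 (AT1G52180, whose coding sequence of 375 bases is the shortest). NIP6-1, NIP1-2, SIP1-2 and AT2G29870 had 1 box. The box nearer the end of the coding sequence is printed for 3 of the called genes that hold both, to show this pore signature in PIP2 and TIP genes. Capitals mark the codons for Asn-Pro-Ala. The stretches lie at chr2:15618654-15618686 (PIP2-3), chr4:16709671-16709703 (PIP2-7) and chr3:5506612-5506644 (TIP2-1), all on the plus strand.
PIP2-3: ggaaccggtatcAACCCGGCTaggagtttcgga
PIP2-7: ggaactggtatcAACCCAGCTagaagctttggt
TIP2-1: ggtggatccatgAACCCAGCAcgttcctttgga

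The libraries held 7973366 to 11812934 counts each, and 0.136% to 0.150% of them fell on the 21 rows. The targeted gene, taken as AT5G40030 from background knowledge, was at 0.63 to 1.78 FPKM (fragments per kilobase of gene and per unit of library depth) in WT and at 0.07 to 0.39 FPKM in agc1-4, lower in every mutant library than in any WT library. This rests on few counts, 10, 39 and 16 in WT and 2, 7 and 1 in agc1-4. Of all tested genes, 29.5% likewise had no overlap in FPKM between the genotypes. All 11 genes of a list of silique and seed markers were detected, with a summed level of 959 to 1117 FPKM in WT and 1087 to 1143 FPKM in agc1-4. In edgeR, 3 of the 11 were higher in agc1-4 and 1 was lower, against 6.55% and 7.07% of all tested genes. The higher ones were MPC and FWA, imprinted genes of the endosperm (log2 fold changes 0.63 and 0.39, adjusted p = 3.82e-06 and 0.000223 in edgeR), and TT8, a regulator of seed coat pigment (0.27, adjusted p = 0.00262). FUL, a regulator of the fruit valves named after its value was seen, was lower (-0.24, adjusted p = 0.0411), a call that DESeq2 and limma did not make. The remaining markers were not called. They were PHE1 (0.03) and AGL62 (-0.11) of the endosperm, and BAN (0.11) and TT12 (-0.19) of the seed coat. SHP1 (0.16), SHP2 (0.06) and IND (0.01) are markers of the fruit. The part of these markers in the aquaporin differences was not tested. In whole siliques, fewer cells of one type and less RNA per cell cannot be told apart.

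The 12 members with enough counts to be tested covered a wide range of levels. In WT, PIP2-7, a plasma membrane water channel, was the most abundant at 263 ± 20.6 FPKM (mean ± SD, n = 3). It was followed by the tonoplast channel TIP1-1 at 143 ± 5.53 FPKM and the plasma membrane channel PIP2-6 at 139 ± 3.75 FPKM, whose ranges overlapped each other. Next came PIP2-5 at 119 ± 3.69 FPKM, PIP2-3 at 109 ± 0.561 FPKM and the tonoplast channel TIP2-1 at 95.1 ± 1.35 FPKM, with no overlap between neighbours in this order. SIP1-2, at 86.2 ± 9.29 FPKM, overlapped TIP2-1 above it and TIP1-2, at 78.6 ± 1.59 FPKM, below it. NIP6-1 followed at 50.7 ± 1.41 FPKM and NIP1-2 at 11.4 ± 0.875 FPKM. PIP2-8 and TIP4-1 were weak, at 2.77 ± 0.611 and 2.11 ± 0.545 FPKM, and overlapped. In agc1-4 the order changed near the top: PIP2-3, the fifth in WT, came second, at 187 ± 5.60 FPKM, and its range overlapped that of PIP2-7 at 195 ± 3.10 FPKM.

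**Figure D1:**
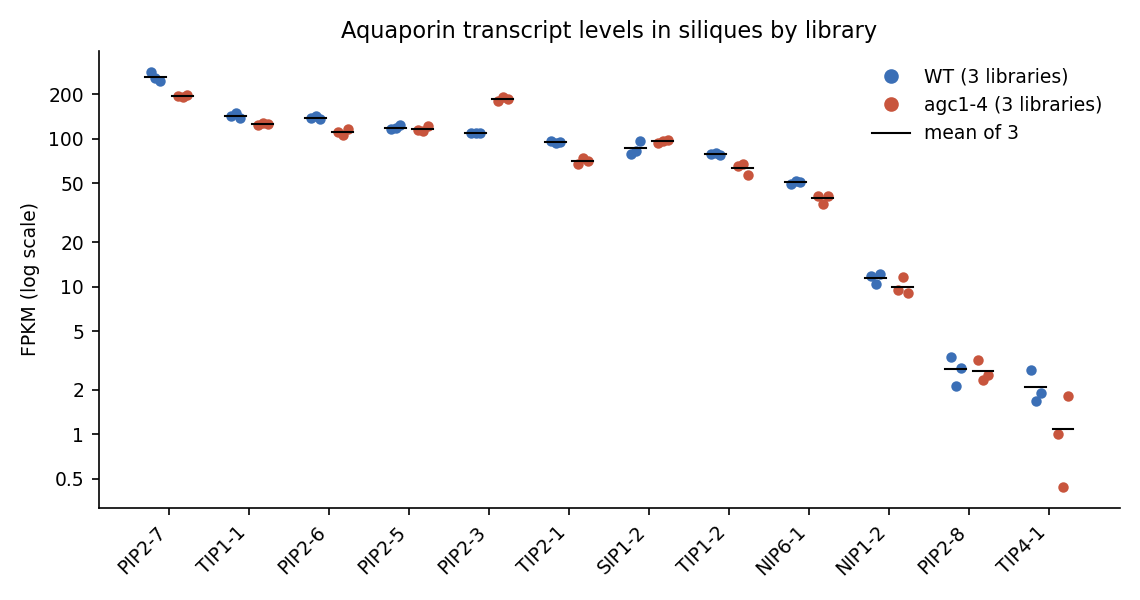
FPKM of the 12 tested aquaporin genes on a log axis, one point per library (WT blue, agc1-4 red), with black bars for the mean of 3 libraries. PIP2-3 lies near 109 FPKM in WT and between 181 and 192 FPKM in agc1-4, while PIP2-7, PIP2-6, TIP1-1, TIP1-2, TIP2-1 and NIP6-1 lie lower in every agc1-4 library than in any WT library.

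The comparison of agc1-4 with WT asked which aquaporin transcripts differ between the genotypes. One plasma membrane channel gene, PIP2-3, was higher in agc1-4 by 1.71-fold, and 6 members were lower by 1.14-fold to 1.34-fold: PIP2-6, PIP2-7, TIP1-1, TIP1-2, TIP2-1 and NIP6-1. The other 5 tested members were not called, where a call is an adjusted p under 0.05 in edgeR's quasi-likelihood test over all genes. Thus 7 of 12 tested members were called, against 13.6% of all 18828 genes tested. The share called lower was 7.07% of all genes and the share called higher 6.55%. Abundant genes were called more often, at 16.0% of the 11267 genes with a mean of at least 10 FPKM, a level that 10 of the 12 tested members reach, with 7.41% higher and 8.59% lower. The genotypes did not overlap in FPKM for 7 of the 12 members, the same 7 that were called, and for 29.5% of all tested genes. The median log2 fold change (agc1-4 over WT) was -0.25 over the 12 members and 0.00 over all tested genes.

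**Figure D2:**
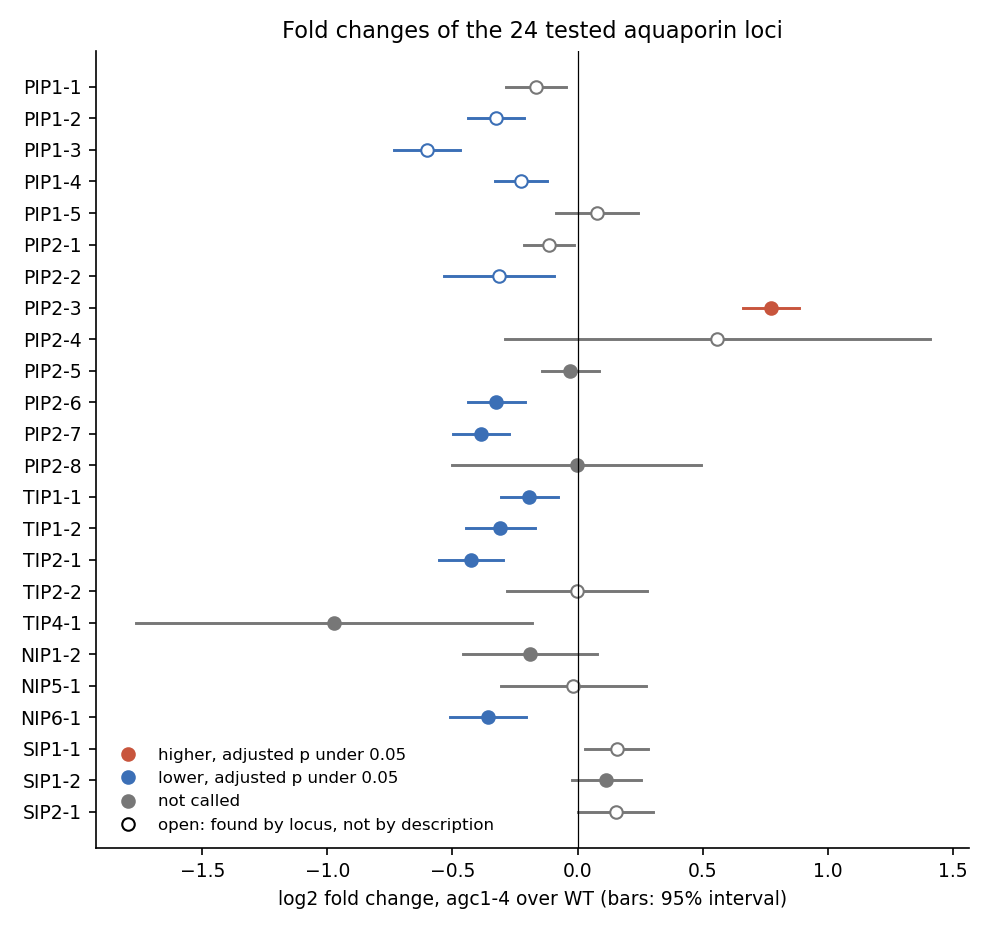
Log2 fold change (agc1-4 over WT) of the 24 tested aquaporin loci from edgeR, with 95% intervals, grouped by subfamily. Filled points are genes found by the description and open points are family loci found by their locus. PIP2-3, at 0.77, is the one locus called higher, and 10 loci are called lower.

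Among the plasma membrane channels, PIP2-3 (AT2G37180) stood at 109.7, 108.67 and 108.8 FPKM in WT replicates 1 to 3 and at 180.92, 192.1 and 187.09 FPKM in agc1-4 replicates 1 to 3. The WT libraries differed from one another by about 1 FPKM, and every agc1-4 library lay far above them. On the log2 scale PIP2-3 rose by 0.77 ± 0.05 (SE), and edgeR gave an adjusted p of 4.89e-11. PIP2-3, also named RD28, was described as a gene responsive to desiccation in Arabidopsis, and its product is a water channel.

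PIP2-7 (AT4G35100), the leading member in WT, was at 284.82, 259.42 and 244.04 FPKM in WT and at 194.26, 192 and 198.13 FPKM in agc1-4. All agc1-4 values lay below the lowest WT value, although the WT libraries spread more widely than the mutant ones. The log2 fold change was -0.39 ± 0.05 (SE, adjusted p = 9.07e-06 in edgeR). PIP2-7 is an efficient water channel of the plasma membrane.

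PIP2-6 (AT2G39010) was at 137.93, 142.91 and 135.57 FPKM in WT and at 111.73, 105.37 and 116.64 FPKM in agc1-4, again without overlap. Its log2 fold change was -0.33 ± 0.06 (SE, adjusted p = 0.000132 in edgeR).

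PIP2-5 (AT3G54820) was at 115.89, 117.55 and 122.94 FPKM in WT and at 114.78, 111.99 and 122.83 FPKM in agc1-4. The genotypes overlapped almost entirely, and the log2 fold change of -0.03 had a 95% interval of -0.14 to 0.08. PIP2-8 (AT2G16850), at 2.14 to 3.36 FPKM in all libraries, had an interval of -0.50 to 0.49 around a log2 fold change of 0.00. At its 30 to 56 counts per library, changes as small as those of PIP2-6 and PIP2-7 were not detectable, while the interval leaves out a change as large as that of PIP2-3.

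The summed level of the 5 PIP2 members was 632 ± 18.8 FPKM in WT and 612 ± 13.2 FPKM in agc1-4 (SD, n = 3), and the libraries of the genotypes overlapped. This sum leaves out PIP2-1, PIP2-2 and PIP2-4, so it does not give the level of all PIP2 genes. PIP2-1 alone was at 507 ± 21.01 FPKM in WT and 456 ± 9.13 FPKM in agc1-4, without overlap and without a call. PIP2-2 was at 20.2 and 15.9 FPKM, and PIP2-4 at 0.98 and 1.37 FPKM (means of WT and agc1-4). The sum over all 21 rows was 1112.4, 1100.92 and 1087.94 FPKM in WT and 1007.51, 1018.78 and 1032.52 FPKM in agc1-4. Without PIP2-3 it was 991 ± 11.8 FPKM in WT and 833 ± 10.9 FPKM in agc1-4. Over all 35 family loci, with the PIP1 genes and PIP2-1, the sum was 2511 ± 54.7 FPKM in WT and 2284 ± 20.2 FPKM in agc1-4. Shares in the sum over the 21 rows are thus not shares of the whole family. The share of PIP2-3 in the sum over the 21 rows was 9.86%, 9.87% and 10.001% in WT and 18.0%, 18.9% and 18.1% in agc1-4. The share of PIP2-7 was 22.4% to 25.6% in WT and 18.9% to 19.3% in agc1-4.

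**Figure D3:**
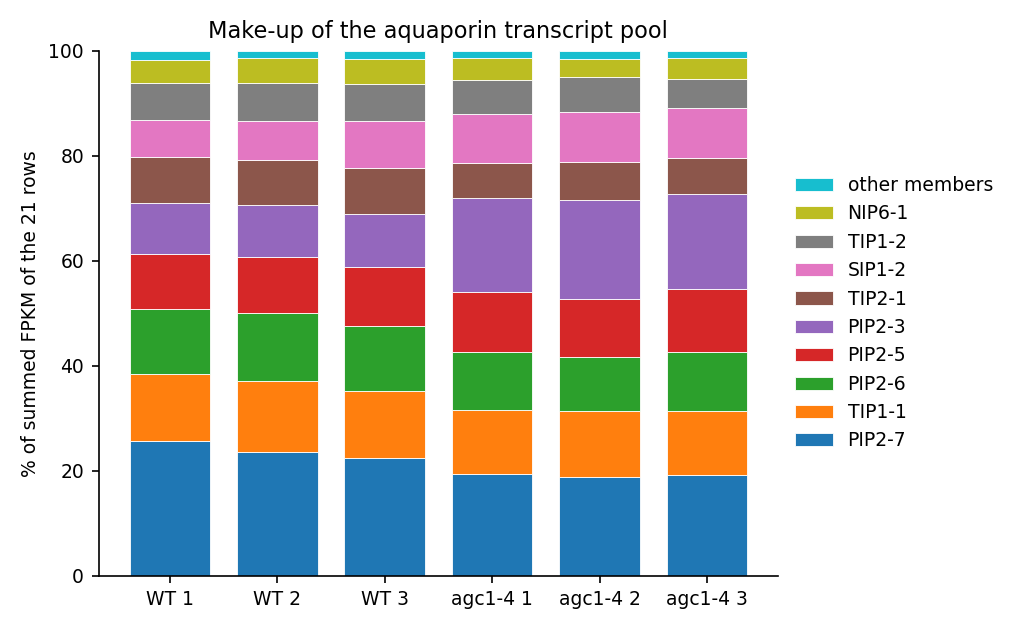
Share of each gene in the summed FPKM of the 21 aquaporin rows, one bar per library, with the 9 most abundant members in colour and the rest pooled. The 16 family loci that the word did not find, among them the PIP1 genes and PIP2-1, are outside this sum. The PIP2-3 band widens from at most 10.001% in the WT libraries to 18.0% to 18.9% in the agc1-4 libraries.

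PIP2-3 has a close neighbour, PIP2-2 (AT2G37170), which the table lists as PIP2B without the word aquaporin. In TAIR10.1 the pair stand head to head on chromosome 2, on opposite strands, with their starts 2613 bases apart. Their coding sequences of 858 bases each are 94.8% identical, with 45 positions that differ, 36 of them in the last base of a codon, and the longest identical run is 242 bases. The 60-base window with the most differences is printed because reads can be assigned to one gene or the other only where such differences lie. It covers bases 414 to 473 of both coding sequences, at chr2:15614198-15614257 (minus strand, PIP2-2) and chr2:15618313-15618372 (plus strand, PIP2-3), and capitals mark the 10 positions that differ.
PIP2-2: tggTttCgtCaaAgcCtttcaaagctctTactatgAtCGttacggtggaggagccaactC
PIP2-3: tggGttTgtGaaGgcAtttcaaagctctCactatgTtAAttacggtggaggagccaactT

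The deposited counts show that reads were divided between the pair. PIP2-3 was the one member with counts that were not whole, at 1132.29, 1546.27 and 1118.91 in WT and 2607.4, 2247.09 and 1819.9 in agc1-4. PIP2-2 was the one other family locus with such counts, at 207.71, 283.73 and 204.09 in WT and 257.6, 165.91 and 155.1 in agc1-4. In every library the fractions added up to a whole number, 1340, 1830 and 1323 in WT and 2865, 2413 and 1975 in agc1-4. Of the 1171 windows of 50 bases in the PIP2-3 transcript, 254 also occur in the PIP2-2 transcript, 21.7% of the whole, and the other 917 occur in no other family transcript.

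PIP2-2, another water channel of the plasma membrane, was at 20.37, 20.19 and 20.02 FPKM in WT and at 17.71, 14.29 and 15.82 FPKM in agc1-4. Its log2 fold change of -0.31 ± 0.11 (SE) was opposite in sign to that of PIP2-3 and passed the threshold narrowly (adjusted p = 0.0490 in edgeR). The call was lost in DESeq2 (adjusted p = 0.186) and in 5 of the 6 fits that left out 1 library (adjusted p = 0.0670 to 0.249). The ratio of PIP2-3 to PIP2-2 was 5.38 to 5.43 in the WT libraries and 10.2 to 13.4 in the agc1-4 libraries. With the pair summed to 1 row, an alternative chosen after seeing the data, the log2 fold change was 0.65 (adjusted p = 9.65e-10 in edgeR), a value that the division of reads between the pair cannot alter.

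**Figure D4:**
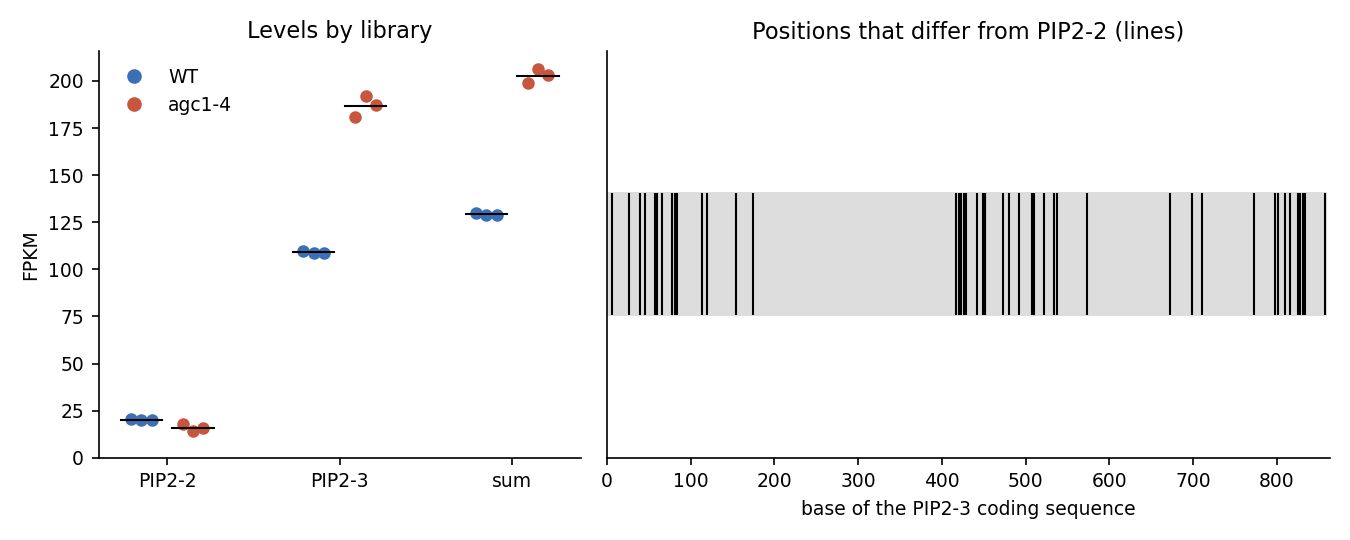
Left, FPKM of PIP2-2, PIP2-3 and their sum, one point per library with a bar for the mean of 3 (WT blue, agc1-4 red). The sum lies at 129 to 130 FPKM in WT and 199 to 206 FPKM in agc1-4. Right, the 858 bases of the PIP2-3 coding sequence with a line at each of the 45 positions that differ from PIP2-2, which leave one stretch of 242 bases without a difference.

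The 250 bases before each gene start are given here because the neighbours were called in opposite directions. They lie at chr2:15615023-15615272 (minus strand, PIP2-2) and chr2:15617385-15617634 (plus strand, PIP2-3) in TAIR10.1. Aligned end to end, they were identical in 44.2% of columns. Capitals mark TATAAA, searched on both strands, which occurs in the PIP2-3 stretch, in 4 of the 12 tested members and in 47.4% of 27443 stretches of the same length before protein-coding genes.
PIP2-2: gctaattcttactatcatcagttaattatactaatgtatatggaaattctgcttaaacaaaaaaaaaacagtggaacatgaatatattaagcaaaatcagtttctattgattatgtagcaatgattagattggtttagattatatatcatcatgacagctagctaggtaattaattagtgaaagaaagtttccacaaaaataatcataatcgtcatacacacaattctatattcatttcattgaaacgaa
PIP2-3: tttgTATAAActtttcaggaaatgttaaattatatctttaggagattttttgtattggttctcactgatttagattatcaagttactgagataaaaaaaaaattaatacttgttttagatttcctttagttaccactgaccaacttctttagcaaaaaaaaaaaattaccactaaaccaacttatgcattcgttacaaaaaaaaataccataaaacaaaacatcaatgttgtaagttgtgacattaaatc

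Other short motifs were searched in the same stretches, on both strands. The G-box CACGTG and the auxin response element TGTCTC occurred before 0 of the 12 tested members and before 6.49% and 10.95% of all protein-coding genes. ACGTG, the core of abscisic acid response elements and part of the G-box, occurred before TIP1-1 alone and before 22.9% of all genes. TTGAC, the core of the W-box that WRKY factors bind, occurred before 6 of the 12 members, 2 of them among the 6 called lower, and before 44.9% of all genes. Neither ACGTG nor TTGAC occurred before PIP2-3 or PIP2-2. Around PIP2-3, 8 other genes among the 6 on either side had enough counts to be tested, and 0 of them were called by edgeR or had an unadjusted p under 0.05, with log2 fold changes of -0.29 to 0.18 (lowest adjusted p = 0.209 in edgeR).

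Among the tonoplast channels, 3 of the 4 tested TIP members were called lower, against 7.07% of all tested genes. TIP2-2, a tested TIP gene that the word did not find, was not called (log2 fold change -0.004, adjusted p = 0.993 in edgeR). TIP2-1 (AT3G16240), the delta-TIP, which carries ammonia as well as water, was at 96.13, 93.6 and 95.69 FPKM in WT and at 67.85, 73.77 and 71.09 FPKM in agc1-4. No WT library was as low as any agc1-4 library, and the log2 fold change was -0.43 ± 0.06 (SE, adjusted p = 1.5e-05 in edgeR). AT3G16250, which overlaps TIP2-1 on the other strand, was also lower (log2 fold change -0.24, adjusted p = 0.0442), at a mean of 46.1 FPKM. The sources used here do not give whether counting used strand, and without it reads from such a pair cannot be told apart. TIP2-1 had whole counts in every library, unlike PIP2-2 and PIP2-3, and whether reads were divided at this overlap was not tested.

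TIP1-2 (AT3G26520), a water channel of the vacuole, was at 78.25, 80.29 and 77.16 FPKM in WT and at 65.23, 67.83 and 56.97 FPKM in agc1-4. The groups did not overlap, and the log2 fold change was -0.31 ± 0.07 (SE, adjusted p = 0.00198 in edgeR).

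TIP1-1 (AT2G36830), the gamma-TIP of expanding vacuoles, was at 142.38, 149.16 and 138.2 FPKM in WT and at 123.18, 127.48 and 125.72 FPKM in agc1-4. This fall of 0.19 ± 0.06 (SE) on the log2 scale was the smallest of the 7 called changes (adjusted p = 0.0178 in edgeR). Its call was lost when WT replicate 1 was left out (adjusted p = 0.0536) and when agc1-4 replicate 1, 2 or 3 was (adjusted p = 0.114, 0.0644 and 0.0659).

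TIP4-1 (AT2G25810), a tonoplast channel known from roots, was at 2.72, 1.68 and 1.92 FPKM in WT and at 1.01, 0.44 and 1.82 FPKM in agc1-4. Replicate 3 of agc1-4 lay within the WT range. The difference of -0.97 ± 0.39 (SE) in log2 was not called (adjusted p = 0.0962 in edgeR), on 5 to 27 counts per library. Without agc1-4 replicate 3 it was -1.45, with an adjusted p of 0.0335. Summed over the 8 TIP members, the level was 320 ± 5.80 FPKM in WT and 261 ± 7.57 FPKM in agc1-4 (SD, n = 3).

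Of the solute channels, NIP6-1 (AT1G80760), a boric acid channel that feeds boron to growing shoot tissues, fell. It was at 49.05, 51.64 and 51.29 FPKM in WT and at 41.07, 36.23 and 41.29 FPKM in agc1-4. The genotypes did not overlap, and the log2 fold change was -0.36 ± 0.07 (SE, adjusted p = 0.00108 in edgeR). AT1G80750, which overlaps NIP6-1 on the other strand, stood at a mean of 57.4 FPKM and was not called (log2 fold change 0.03, adjusted p = 0.868).

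NIP1-2 (AT4G18910), a channel linked to metalloid uptake, was at 11.71, 10.42 and 12.09 FPKM in WT and at 9.41, 11.54 and 9.07 FPKM in agc1-4. The groups overlapped, and the log2 fold change of -0.19 had a 95% interval of -0.46 to 0.08 (adjusted p = 0.383 in edgeR).

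SIP1-2 (AT5G18290), of the endoplasmic reticulum, was at 79.24, 82.56 and 96.73 FPKM in WT and at 94.2, 96.71 and 98.25 FPKM in agc1-4. WT replicate 3 lay among the mutant libraries and the other two WT libraries below them. The log2 fold change was 0.12 ± 0.07 (SE, adjusted p = 0.279 in edgeR), with a 95% interval of -0.02 to 0.25. Without WT replicate 3 it was 0.19, with an adjusted p of 0.0485, and the number of members called higher was then 2.

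The remaining 9 members had too few counts to be tested. AT1G52180, AT2G29870, NIP4-1, TIP2-3 and TIP3-1 had 0 counts in every library, which allows up to 3 counts in each. TIP3-1, the alpha-TIP, marks the protein storage vacuoles of maturing seeds. A list of 4 seed maturation genes was likewise near 0, with a summed level of 0.11 to 0.77 FPKM in any library and with CRA1 and AT2S3 at 0 counts throughout. NIP4-1, TIP1-3 and TIP5-1 are known from pollen. TIP5-1 was at 0.43 to 0.71 FPKM in WT and 0.59 to 0.75 FPKM in agc1-4, and TIP1-3 had 1 count in WT replicates 2 and 3 and 0 elsewhere. A list of 11 pollen markers had a summed level of 157 to 204 FPKM in WT and 189 to 226 FPKM in agc1-4. In edgeR, 1 of its 9 tested genes was called higher, against 6.55% of all tested genes, and 0 lower. At an unadjusted p under 0.05, 3 were higher and 0 lower, and the share of all genes at that p was not computed. ANX1 (-0.13) and MYB101 (-0.07) had negative log2 fold changes without a call, and the other tested markers positive ones. The called gene was BUPS1, a receptor kinase of pollen tubes (log2 fold change 0.48, adjusted p = 0.00357). NIP2-1, known from roots, and NIP3-1 stayed at or below 0.41 FPKM. NIP2-1 and AT2G29870 share 144 windows of 50 bases, of 1113 in the NIP2-1 transcript. A read from a shared window could come from either gene, though the few counts of NIP2-1 were whole and AT2G29870 had 0.

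The 16 family loci that the word did not find also included genes that fell: of 12 tested, 4 were lower and 0 were higher in edgeR (median log2 fold change -0.07). Of all tested genes, 7.07% were lower and 6.55% higher. At an unadjusted p under 0.05 there were 6 lower and 2 higher, and the share of all genes at that p was not computed. DESeq2 called 3 lower and 0 higher, and limma 4 lower and 0 higher. Among all genes, DESeq2 called 1586 and limma 1910 in either direction. PIP1 proteins join PIP2 proteins in mixed tetramers in the plasma membrane, and 3 of the 5 PIP1 genes fell. PIP1-3 was at 74.67, 70.84 and 71.68 FPKM in WT and at 51.82, 49.39 and 46.68 FPKM in agc1-4, and fell by 0.60 ± 0.06 (SE) in log2 (adjusted p = 1.12e-07 in edgeR). PIP1-2 and PIP1-4 fell by 0.33 and 0.23 on the log2 scale (adjusted p = 9.31e-05 and 0.00283). The fourth was PIP2-2. PIP2-1, the most abundant family gene at 507 ± 21.01 FPKM in WT, was not called (log2 fold change -0.11, adjusted p = 0.128), and neither were PIP1-1 (-0.17, adjusted p = 0.0607) and PIP1-5 (0.08, adjusted p = 0.579). PIP2-4, at 7 to 24 counts per library, had a log2 fold change of 0.56 without a call (adjusted p = 0.423 in edgeR). Its 95% interval of -0.29 to 1.41 includes a change as large as that of PIP2-3. These values of genes without a call were chosen after they were seen. Both SIP loci in this set, SIP1-1 and SIP2-1, had positive log2 fold changes of 0.16 and 0.15 without a call (adjusted p = 0.0899 and 0.178).

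Proton pumps set up the gradients that drive the solute uptake water follows. Of 9 tested plasma membrane pumps (AHA genes) edgeR, DESeq2 and limma called 0, with a median log2 fold change of -0.05 and 0 genes at an unadjusted p under 0.05. The lowest unadjusted p were those of AHA8 (0.0779) and AHA3 (0.117). Of 11 tested vacuolar pump genes the same tools called 0, with a median of 0.02, and 1 gene, VHA-B2, had an unadjusted p under 0.05 (0.0348). Of 6 tested genes for trafficking or turnover of aquaporins, SYP121, a syntaxin that delivers PIP proteins to the plasma membrane, fell by 0.27 ± 0.09 (SE) on the log2 scale (adjusted p = 0.0301 in edgeR), a call that DESeq2 and limma did not make. Of 3 boron exporters, BOR1, which loads boron into the xylem, was at 20.28, 22.12 and 22.43 FPKM in WT and at 16.77, 15.79 and 16.73 FPKM in agc1-4 (log2 fold change -0.40 ± 0.07, adjusted p = 0.000284). BOR2 and BOR4 were not called. Among all tested genes, edgeR called 6.55% higher and 7.07% lower, shares at which lists this short can hold 0 calls or 1.

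**Figure D5:**
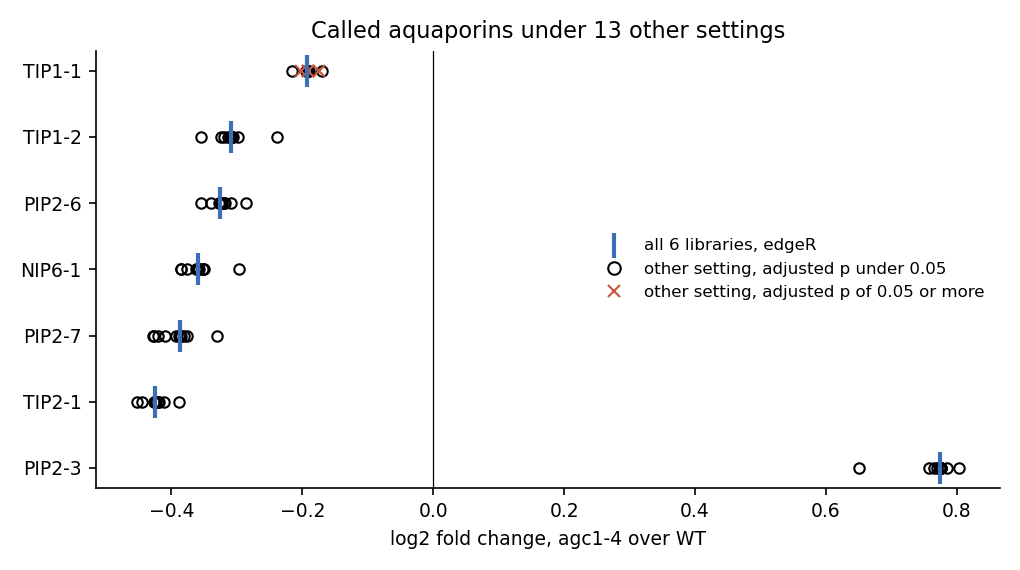
Log2 fold change (agc1-4 over WT) of the 7 called aquaporin genes with all libraries (blue bar) and under 13 other settings (circles, adjusted p under 0.05; crosses, adjusted p of 0.05 or more). PIP2-3 ranges from 0.65, the value with PIP2-2 added to it, to 0.80, and crosses appear for TIP1-1 alone.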

How the data were processed

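RNA was measured in 3 WT and 3 agc1-4 silique libraries. Per the file headers, the authors deposited 1 table with 6 columns of estimated counts and 6 columns of FPKM, and 4.32% to 4.86% of the deposited counts per library were not whole. The sources used here name no aligner, counter, build or strand. Counts were rounded and tested with edgeR 4.0.16 in R 4.3.3 (TMM, filterByExpr, robust quasi-likelihood F-test, Benjamini-Hochberg over all 18828 genes left of 27779). The SE is the size of the log2 fold change divided by the square root of F, and 95% intervals use the t distribution of that fit. DESeq2 1.42.0 and limma 3.58.1 served as alternatives, and all 3 were tested on simulated data. Sequences came from RefSeq (TAIR10.1), looked up by locus with the first transcript model of each gene, and aligned with Biopython 1.88; all 37 loci matched. Between genotypes, FPKM and count ratios differed slightly for some genes (PIP2-7, 0.741 and 0.764). Values in every library are given for called members, the 6 most abundant, and the uncalled member with the smallest p in each subfamily. From each other list, up to 3 called genes by adjusted p were named, or up to 2 by p where none was called. Further silique, seed and pollen markers were named after their values were seen. The members and lists were chosen with earlier results of these data known. Libraries of a genotype differed beyond sampling noise (chi-square per degree of freedom 1.84 to 4.82), so none was a copy. The 95% intervals hold the spread between libraries, and the floor of 3 counts covers counting error only.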

Additional observations from a re-analysis of the deposited data

How the results depend on the processing

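The direction of each of the 7 called members was kept under all 13 alternatives, and the calls of PIP2-3, PIP2-6, PIP2-7, TIP1-2, TIP2-1 and NIP6-1 were kept as well. Without 1 library, 1 to 2 members were called higher and 5 to 6 lower, the median log2 fold change of the members was -0.29 to -0.22, and 1688 to 2816 genes were called in all. DESeq2 called 1586 genes in all, 7 of them members. With all 35 family loci in place of the 21 rows, 24 were tested and the median was -0.18. Of these 24, 10 were called lower and 1 higher, against 7.07% and 6.55% of all tested genes. Without 1 library, 2 genes without a call turned sign: PIP2-5 ranged from -0.064 to 0.0019 (positive without agc1-4 replicate 2) and PIP2-8 from -0.19 to 0.16 (positive when WT replicate 1 or 3, or the mutant's replicate 2 or 3, was left out). The cause was not tested. Same-numbered libraries did not deviate together (correlations of -0.03 to 0.03). With 3 libraries per genotype a weak shared effect would not show, so these correlations cannot tell whether same-numbered libraries were prepared as pairs. With the replicate block, 1 member was called higher and 6 lower, with a median of -0.25 and 2643 genes called in all. At the counts of TIP4-1 and PIP2-8, 5 to 56 per library, changes as small as those of the 6 members called lower were not detectable.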
